A study of Mus musculus with 19 samples.

Results

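The 45 genes described here are cell cycle and proliferation genes, all expressed mainly while cells replicate their DNA or divide. They were chosen by name, from a list of S phase, G2/M and mitotic genes in which Mki67 served as the reference. The rule uses no measured value, but the list was made with earlier results of these data known. All 45 were found in both deposited tables, among 23284 genes. Proliferating cells license replication origins in G1, when Cdc6 and Cdt1 load the Mcm2 to Mcm7 helicase onto DNA, and copy the genome in S phase with Pcna and with nucleotides made by ribonucleotide reductase, thymidylate synthase and thymidine kinase. Entry into mitosis follows the activation of Cdk1 by cyclins A and B, and exit from it follows destruction of the cyclins through the anaphase-promoting complex, with Cdc20 and Ube2c. S phase genes are typically switched on by E2F factors, and G2/M genes by the MuvB complex with Mybl2 and Foxm1. Prostate epithelium of grown mice is known as a slowly renewing tissue, whereas embryonic fibroblasts divide quickly in culture.

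RNA-seq measured these genes in 3 labelled groups of C57BL/6 mouse samples. The 6 prostate samples were whole tissue of mice 6 weeks old, and the 6 MEF samples were mouse embryonic fibroblasts from E13.5 embryos, grown in culture and labelled Nkx3-1tm2(LacZ)Mms /+. In the study such cultures pooled littermates and were depleted by sorting of blood, endothelial and epithelial cells. The 7 renal grafts combined induced mouse epithelial cells with rat urogenital mesenchyme and grew for 6 weeks. In the study these cells came from fibroblasts given retroviral OSKM factors (OCT4, SOX2, KLF4 and c-MYC), and cells of the iEpt+NAF grafts also received lentiviral transcription factors. The grafts grew under the kidney capsule of nude mice. The labels do not separate the 2 kinds of graft: the supplementary material names FS002, FS003, FS005, FS007 and FS008 as iEpt+NAF grafts, which leaves the separately tabulated FS022 and FS023 as the iEpt only grafts. A graft therefore holds rat stroma and host tissue beside the mouse epithelial cells, and how many rat reads were counted on mouse genes was not tested. Nothing in the labels says whether samples of a group came from separate animals or cultures, so p-values measure the spread between these samples.

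Values are on the log2 scale on which the authors deposited them, so a difference of 1 is a doubling, and somewhat more than a doubling of reads at low levels. The reads counted on genes, as the values imply, ranged from 16767296 to 26152350 in the first table and were 6629666 in FS022 and 9662062 in FS023. A count of 3 reads has a log2 value between 1.68 and 2.34 at the depths of the larger table, and 3.12 (FS022) or 2.70 (FS023) in the smaller, and no member fell under it in any of the 19 samples. All 45 members were also above the minimum level of the test, a linear value of 10, in each of the 17 samples of the first table, so none was tested only because it was high in 1 group. Among MEFs, 3 pairs of samples (FS015 with FS020, FS016 with FS019 and FS017 with FS018) were close. Their median squared difference was 2.05 to 2.57 times that of counting error alone, against 20.9 to 30.5 times for the other 12 pairs. Counts are therefore also given with each pair averaged. Prostate secretory genes (Pbsn, Sbp, Spink3, Msmb) had a summed linear level of 1084810 to 2298980 in prostate, against 578 to 4345 in the 5 grafts, and 4.74 to 3153 in MEFs, where FS019 and FS020 alone were near 0.

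By group means every member was lowest in prostate, and nearly all were highest in MEFs, with the iEpt+NAF grafts between them. The median over the 45 members was 9.10 in graft FS002, 8.87 in FS003, 9.35 in FS005, 8.84 in FS007 and 8.29 in FS008. In prostate it ranged from 6.44 to 7.15 (median 6.89, n = 6) and in MEFs from 9.98 to 10.49 (median 10.25, n = 6), so the 3 groups did not overlap. Of the 45 members, 43 had means in the order MEFs, grafts, prostate, against 20.5% of 16080 genes above the minimum level, and for 32 no sample of one group overlapped with the next, against 3.36%. In bulk RNA, fewer dividing cells and less RNA in each of them cannot be told apart.

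**Figure D1:**
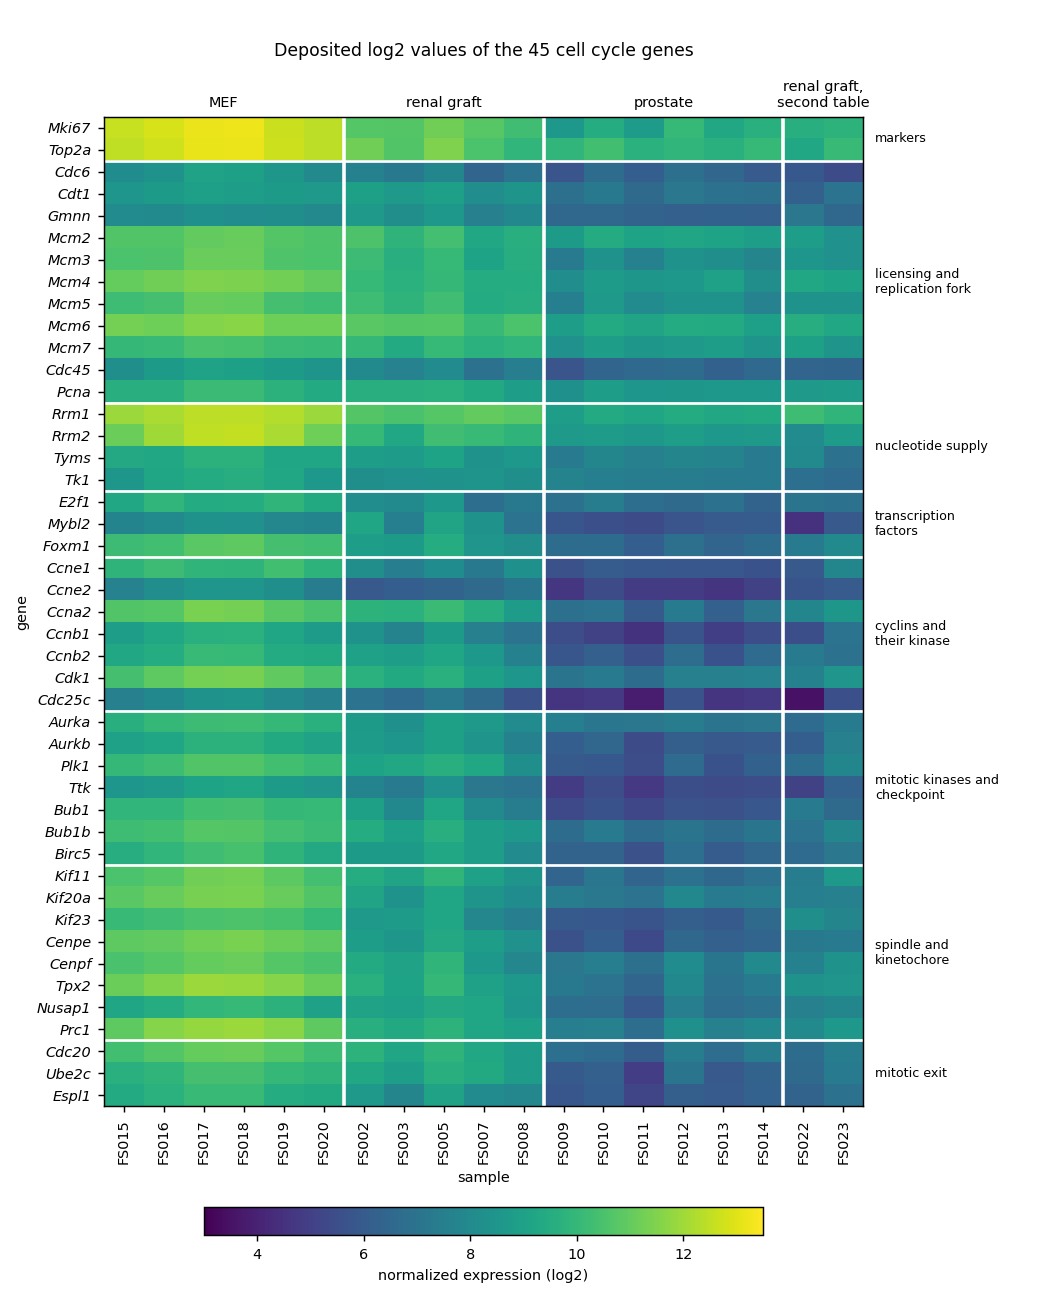
Deposited log2 values of the 45 members (rows, by role) in the 19 samples (columns, by group), as colour. MEF columns are mostly the brightest and prostate columns the darkest, the 5 first-table grafts lie between, and FS022 and FS023 were normalized in a separate table.

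Compared with prostate, 39 of 45 members were higher in the 5 iEpt+NAF grafts by limma (adjusted p under 0.05 and at least a doubling), against 23.0% of all 16353 genes tested, and none was lower, against 10.3%; none was lower at an unadjusted p under 0.05 either. Without the minimum fold all 45 passed, and the median member differed by 1.83 on the log2 scale (3.57-fold), against 0.11 for all genes. All 5 grafts lay above all 6 prostate samples for 38 members, against 19.8% of all genes in that direction. The differences ran from 0.83 for Top2a to 3.12 for Ube2c. The largest were of genes used in mitosis, and the 6 members that missed the minimum fold were Top2a and 5 S phase genes.

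Compared with MEFs, 31 of 45 members were lower in the grafts, against 12.0% of 16121 genes, and none was higher, against 29.9%; none was higher at an unadjusted p under 0.05. The median member fell by 1.32 on the log2 scale (2.50-fold), while the median of all genes was 0.26. For 38 members all 5 grafts lay below all 6 MEF samples, against 18.9% of all genes. In prostate all 45 members were lower than in MEFs, with no overlap for any of them, against 20.5% of 14560 genes called lower and 29.3% lower without overlap. None was higher there, against 27.8% of genes. The median member differed by -3.31 on the log2 scale (9.93-fold), from -1.21 for Pcna to -5.06 for Cenpe. These comparisons share samples with each other, so their values are set side by side here and not counted as separate support.

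**Figure D2:**
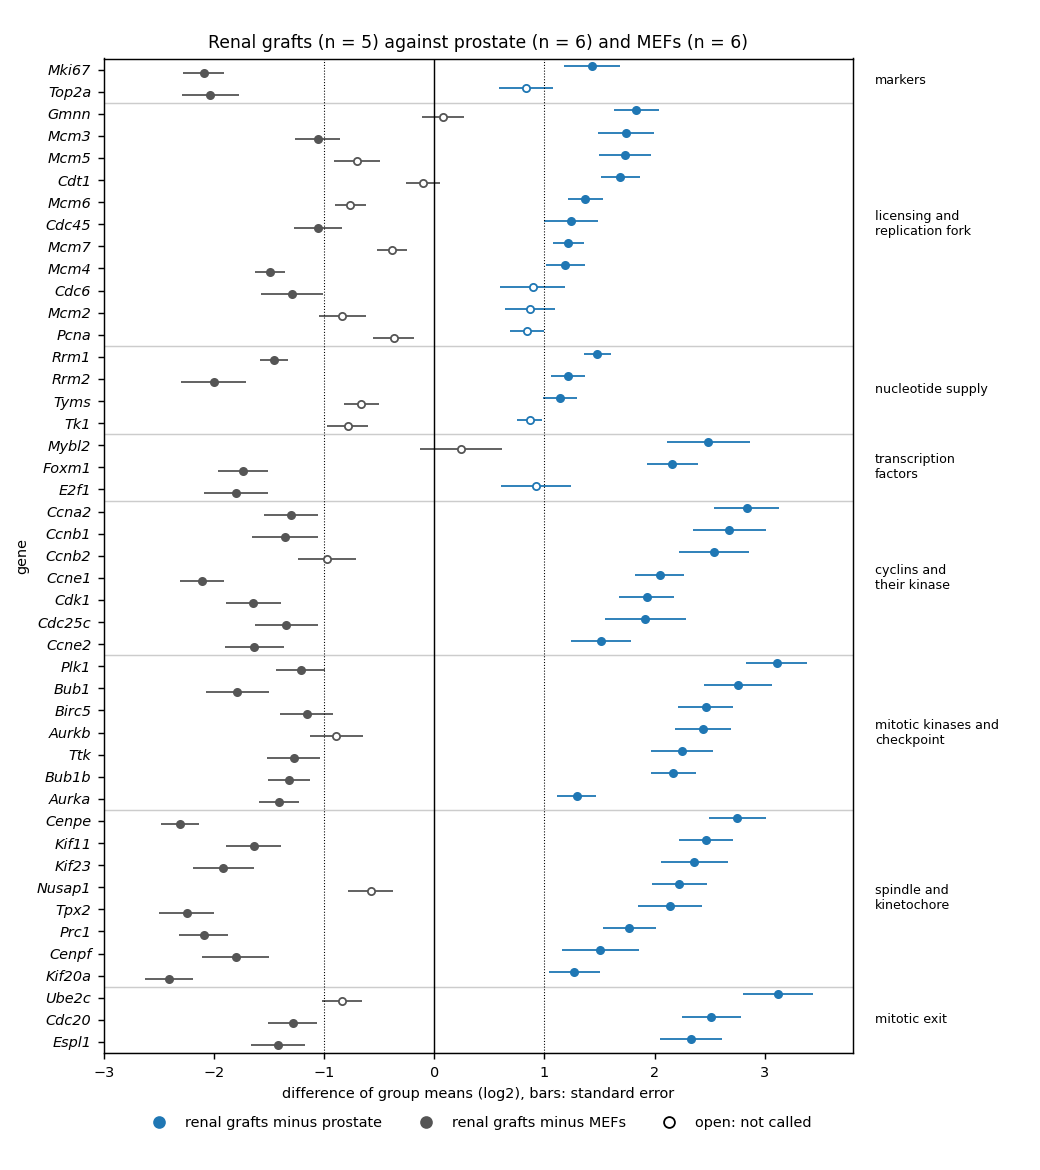
Difference of group means (log2, x axis) of the 5 iEpt+NAF grafts from 6 prostate samples (blue) and from 6 MEF samples (grey) for each member, by role; bars are standard errors, filled points passed adjusted p and minimum fold, and dotted lines mark 1 and -1. All blue points are above 0, from 0.83 to 3.12, and the grey points run from -2.41 to 0.24.

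Mki67 encodes the Ki-67 antigen, which coats mitotic chromosomes and is the usual stain for dividing cells. The gene lies at chr7:142881471-142908062 (mm9, minus strand). Its values were 10.72, 10.68, 11.24, 10.78 and 10.27 in FS002, FS003, FS005, FS007 and FS008, against 8.61 to 10.03 in prostate (median 9.37) and 12.45 to 13.25 in MEFs (median 12.75). The 3 groups did not overlap, and the highest prostate sample was FS012. Grafts were higher than prostate by 1.43 ± 0.25 (SE; 2.69-fold, adjusted p = 0.000654, limma) and differed from MEFs by -2.10 ± 0.19 (4.27-fold lower, adjusted p = 3.71e-06).

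Top2a, the topoisomerase that untangles DNA for chromosome segregation, had values of 11.20, 10.65, 11.47, 10.53 and 9.92 in the grafts, 9.68 to 10.32 in prostate (median 9.90) and 12.44 to 13.20 in MEFs (median 12.73). Graft FS008 fell within the prostate range, and the other 4 grafts lay above it. The difference from prostate was 0.83 ± 0.24 (adjusted p = 0.0124), the smallest of any member, and it reached 1.04 without FS008. Of the other 44 members, 30 differed from prostate by more than Mki67 did and 14 by less.

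Licensing and fork genes were the members in which the grafts came closest to MEFs. Of these 11 genes, 8 were higher in grafts than in prostate, with a median difference of 1.24, and only 4 were lower than in MEFs, with a median of -0.76. Gmnn encodes geminin, which blocks Cdt1 after S phase begins. Gmnn values were 8.65, 8.20, 8.58, 7.57 and 7.92 in the grafts, 6.22 to 6.53 in prostate (median 6.30) and 7.94 to 8.28 in MEFs (median 8.11). FS002 and FS005 thus exceeded every MEF sample, while FS007 and FS008 lay below all of them.

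Gmnn was 1.83 ± 0.20 above prostate (adjusted p = 2.64e-05) and differed from MEFs by 0.08 ± 0.19 (adjusted p = 0.739), and that sign turned when FS002 or FS005 was left out (-0.039 and -0.023). Cdt1, its partner, differed from MEFs by -0.11 ± 0.15 (adjusted p = 0.561), and FS002 at 8.97 was above the highest MEF sample at 8.94. Pcna, the sliding clamp of the replication fork, had the smallest graft to prostate difference of the group. Its values were 9.58, 9.58, 9.67, 9.38 and 8.85 in the grafts, 8.29 to 8.88 in prostate (median 8.58) and 9.43 to 10.16 in MEFs (median 9.67). Graft FS008 lay inside the prostate range, and FS002, FS003 and FS005 inside the MEF range. The difference was 0.84 ± 0.16 from prostate (adjusted p = 0.000905) and -0.37 ± 0.18 from MEFs (adjusted p = 0.096).

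The 6 helicase subunits did not move by one amount. Mcm3 and Mcm5 were higher in grafts than in prostate by 1.74 ± 0.25 and 1.73 ± 0.24, Mcm6, Mcm7 and Mcm4 by 1.19 to 1.37, and Mcm2 by 0.87 ± 0.23, below the minimum fold. Against MEFs, Mcm4 was lowest relative to its partners (-1.49 ± 0.14, adjusted p = 4.09e-06) and Mcm7 nearest to 0 (-0.38 ± 0.14, adjusted p = 0.0262). Mcm2, Mcm5, Mcm6 and Mcm7 missed the minimum fold in that comparison, and Mcm3, which passed it at -1.06, missed it without graft FS007 (-0.91). Cdc6, the loader of the helicase, differed from prostate by 0.89 ± 0.29 (adjusted p = 0.0222) and from MEFs by -1.30 ± 0.28, and Cdc45, a component of the active helicase, by 1.24 ± 0.24 and -1.06 ± 0.22. Neither Cdc45 call held throughout: the difference from prostate was 0.56 under quantile normalization and 0.99 without FS002 and FS005, and that from MEFs was -0.88 without FS007.

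Of the 4 genes of nucleotide supply, Rrm1, Rrm2 and Tyms were higher in grafts than in prostate and Rrm1 and Rrm2 lower than in MEFs. Rrm1, the large subunit of ribonucleotide reductase, was among the most even members within groups: 10.71, 10.49, 10.73, 10.96 and 10.82 in the grafts, 8.90 to 9.48 in prostate (median 9.32) and 11.92 to 12.44 in MEFs (median 12.23). Its groups were fully separate, with differences of 1.48 ± 0.12 from prostate (adjusted p = 2.98e-06) and -1.46 ± 0.13 from MEFs (adjusted p = 2.65e-06). Tk1, the thymidine kinase of the salvage pathway, varied least among the grafts: its graft values were 8.25, 8.31, 8.34, 8.44 and 8.24, an SD of 0.08 (n = 5), against 7.28 to 7.68 in prostate (median 7.44) and 8.56 to 9.54 in MEFs (median 9.24). The 3 groups did not overlap, yet the difference from prostate, 0.86 ± 0.11 (adjusted p = 7.62e-05), was under the minimum fold. Rrm2, the small subunit whose level limits the enzyme, differed between grafts and MEFs by -2.004 ± 0.29, and Tyms, thymidylate synthase, by -0.66 ± 0.16, under the minimum fold. A processed copy of Tyms exists, so its reads could be shared, and the same holds for Pcna, Ccnb1 and Ccnb2.

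The 3 transcription factors did not share a pattern. E2f1, an activator of S phase genes, had values of 8.15, 8.03, 8.60, 6.81 and 7.24 in the grafts, 6.33 to 7.43 in prostate (median 6.85) and 9.32 to 9.92 in MEFs (median 9.47). FS007 and FS008 were within the prostate range, and no graft reached MEFs. The difference from prostate was 0.93 ± 0.32 (adjusted p = 0.0273), which passed the minimum fold without FS007 (1.17), without FS008 (1.06) or without prostate sample FS010 (1.05), and that from MEFs was -1.801 ± 0.29 (adjusted p = 0.000259).

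Mybl2, the B-Myb subunit that joins MuvB to switch on mitotic genes, was the member with the widest spread among grafts. Its values were 9.16, 7.55, 9.15, 8.39 and 7.02 in FS002, FS003, FS005, FS007 and FS008, an SD of 0.96 (n = 5), against 5.41 to 6.05 in prostate (median 5.78) and 7.72 to 8.37 in MEFs (median 7.95). FS002 and FS005 exceeded the highest MEF sample clearly and FS007 (8.39 against 8.37) barely, while FS003 and FS008 lay below the lowest. Mybl2 was thus 2.49 ± 0.38 above prostate (adjusted p = 0.00022) and 0.24 ± 0.37 from MEFs (adjusted p = 0.581), a sign that turned to -0.36 without FS002 and FS005. Foxm1, the forkhead factor that takes over from B-Myb in G2, differed by 2.16 ± 0.23 from prostate and by -1.74 ± 0.23 from MEFs.

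**Figure D3:**
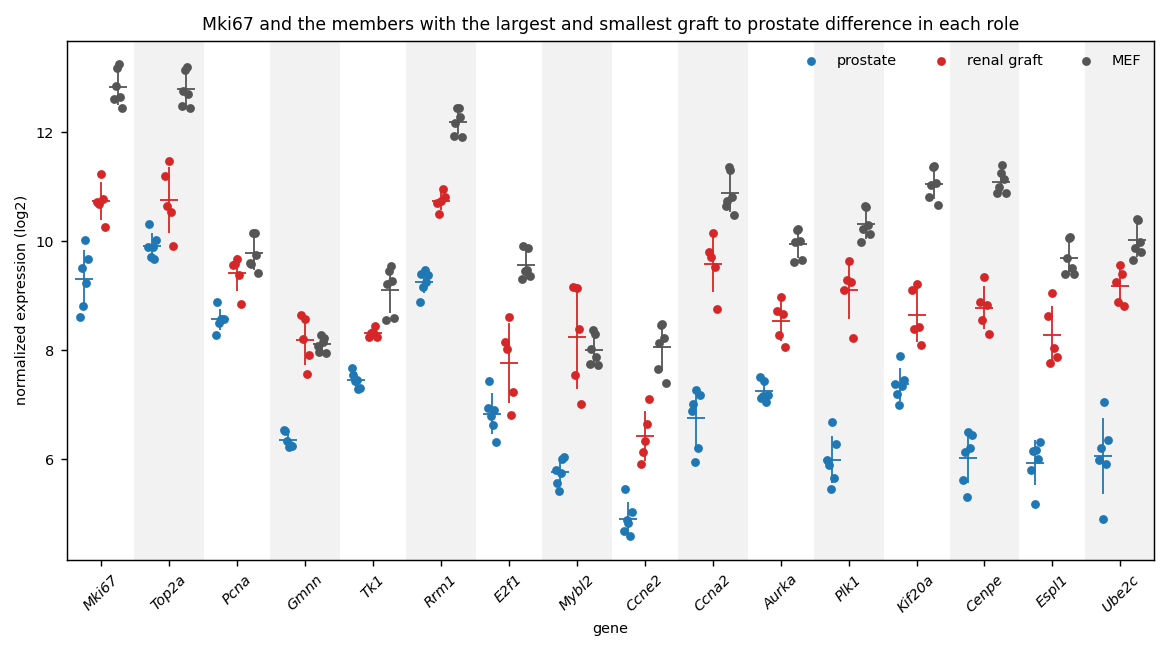
Log2 values (y axis) of Mki67 and of the members with the smallest and the largest graft to prostate difference in each role (x axis), in 6 prostate samples, 5 iEpt+NAF grafts and 6 MEF samples; points are samples, bars the mean and SD. Graft points overlap MEF points for Gmnn, Pcna and Mybl2 and prostate points for Top2a, Pcna and E2f1.

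Cyclins and their kinase were higher in grafts than in prostate for all 7 genes and lower than in MEFs for 6. Ccna2, cyclin A2, which acts in S phase and at mitotic entry, had graft values of 9.80, 9.72, 10.14, 9.54 and 8.76, against 5.96 to 7.28 in prostate (median 6.95) and 10.48 to 11.37 in MEFs (median 10.78). The 3 groups were separate, with grafts 2.84 ± 0.30 above prostate (7.14-fold, adjusted p = 1.73e-05) and -1.30 ± 0.24 from MEFs (adjusted p = 0.000681). Ccnb1 and Ccnb2, the mitotic B cyclins, were higher than in prostate by 2.68 ± 0.33 and 2.54 ± 0.32. Ccnb2 differed from MEFs by -0.97 ± 0.27 (adjusted p = 0.00749), just short of the minimum fold, which it passed without FS002 (-1.07), FS003 (-1.03) or FS005 (-1.10), or without any of 4 MEF samples (FS015, FS016, FS019, FS020). Ccnb1 differed by -1.36 ± 0.30. Cdk1, their catalytic partner, and Cdc25c, the phosphatase that activates it, were 1.93 ± 0.25 and 1.92 ± 0.37 above prostate. Under quantile normalization the Cdc25c difference was 0.75 (adjusted p = 0.0697, limma), and its call was lost.

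The E cyclins, which drive entry into S phase, ranked the grafts in another order. Ccne2 values were 5.92, 6.13, 6.34, 6.64 and 7.10 in FS002, FS003, FS005, FS007 and FS008, against 4.59 to 5.46 in prostate (median 4.86) and 7.399 to 8.49 in MEFs (median 8.18). FS008, the lowest graft for nearly all mitotic genes, was the highest for Ccne2 and, at 8.28, for Ccne1. Grafts were above prostate by 1.51 ± 0.27 for Ccne2 (adjusted p = 0.000671) and 2.05 ± 0.22 for Ccne1. The Ccne2 difference dropped to 0.15 under quantile normalization (adjusted p = 0.81), and Ccne2 shares 17.4% of its exon bases with Ints8 on the other strand.

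All 7 mitotic kinases and checkpoint genes were higher in grafts than in prostate, by a median of 2.44, and 6 were lower than in MEFs. Plk1, polo-like kinase 1, which acts in centrosome maturation and mitotic exit, had values of 9.10, 9.28, 9.64, 9.26 and 8.23 in the grafts, 5.46 to 6.68 in prostate (median 5.95) and 9.98 to 10.65 in MEFs (median 10.26). No groups overlapped, and grafts were 3.11 ± 0.28 above prostate (8.63-fold, adjusted p = 5.74e-06) but -1.22 ± 0.23 from MEFs (adjusted p = 0.000689), the latter just under the minimum fold without FS008 (-0.997). Aurka, the centrosomal Aurora kinase, differed least from prostate: its values were 8.72, 8.29, 8.99, 8.66 and 8.05 in the grafts, 7.06 to 7.52 in prostate (median 7.17) and 9.63 to 10.23 in MEFs (median 9.99). Here too the groups were separate, by 1.29 ± 0.18 from prostate (adjusted p = 0.000112) and -1.41 ± 0.18 from MEFs.

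Aurkb, the Aurora kinase of the chromosomal passenger complex, differed from prostate by 2.44 ± 0.25 and from MEFs by -0.89 ± 0.24, short of the minimum fold, which it passed without FS005 (-1.01). Birc5, survivin, a subunit of the same complex, was 2.46 ± 0.25 above prostate and -1.16 ± 0.24 from MEFs (-0.995 without FS008). The spindle checkpoint kinases Bub1, Bub1b and Ttk were 2.75, 2.17 and 2.25 above prostate. Their differences from MEFs were -1.79, -1.32 and -1.28.

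Apart from the 2 markers, spindle and kinetochore genes had the largest differences from MEFs, with a median of -2.01 over 8 genes, of which 7 were lower in grafts; all 8 were higher in grafts than in prostate. Cenpe, the kinesin that carries chromosomes to the spindle equator, had values of 8.88, 8.56, 9.35, 8.84 and 8.29 in the grafts, 5.30 to 6.50 in prostate (median 6.17) and 10.88 to 11.39 in MEFs (median 11.07). Its groups were separate, 2.75 ± 0.26 above prostate (adjusted p = 8.3e-06) and -2.31 ± 0.17 from MEFs (adjusted p = 1.08e-06). Kif20a, a kinesin of the central spindle, combined the largest difference from MEFs of any member (-2.41 ± 0.22, adjusted p = 3.95e-06) with one of the smaller differences from prostate (1.27 ± 0.23, adjusted p = 0.000749), which missed the minimum fold without FS002 and FS005 (0.93). Its values were 9.12, 8.40, 9.22, 8.43 and 8.10 in the grafts, 6.99 to 7.89 in prostate (median 7.36) and 10.66 to 11.38 in MEFs (median 11.06).

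Kif20a shares 32.3% of its exon bases with Cdc23, a subunit of the anaphase-promoting complex on the other strand. Cdc23 values were 9.87 to 10.22 in prostate and 9.48 to 9.74 in the grafts. The libraries do not mark strand, so reads in the shared bases cannot be told apart by strand. Nusap1, which bundles spindle microtubules, was the exception against MEFs, at -0.58 ± 0.21 (adjusted p = 0.0284). The motor Kif11, the midzone proteins Kif23 and Prc1, the spindle assembly factor Tpx2 and the kinetochore protein Cenpf were above prostate by 2.47, 2.36, 1.77, 2.14 and 1.51. For Cenpf, graft FS008 at 7.86 lay inside the prostate range.

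Mitotic exit genes were 2.33 to 3.12 above prostate. Ube2c, the ubiquitin-conjugating enzyme of the anaphase-promoting complex, at chr2:164595398-164604322 (mm9, plus strand), had the largest difference of the 45 members. Its values were 9.26, 8.89, 9.57, 9.39 and 8.82 in the grafts, 4.90 to 7.04 in prostate (median 6.09) and 9.66 to 10.41 in MEFs (median 9.94). All grafts lay above all prostate samples and below all MEF samples, by 3.12 ± 0.32 from prostate (8.68-fold, adjusted p = 1.48e-05) and -0.84 ± 0.18 from MEFs (adjusted p = 0.00178), the latter under the minimum fold.

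Ube2c shares 22.8% of its exon bases with Tnnc2, a muscle troponin gene on the other strand. Tnnc2 stood at 12.57, 11.90 and 12.17 in FS002, FS003 and FS005, at 5.43 and 3.40 in FS007 and FS008, at 9.09 to 10.01 in prostate and at 2.64 to 3.77 in MEFs. The part of shared reads in the Ube2c values was not tested. Espl1, separase, which cuts cohesin at anaphase, had values of 8.62, 7.77, 9.05, 8.05 and 7.87 in the grafts, 5.19 to 6.32 in prostate (median 6.08) and 9.39 to 10.08 in MEFs (median 9.60). The groups did not overlap, 2.33 ± 0.28 above prostate (adjusted p = 4.42e-05) and -1.42 ± 0.24 from MEFs. Cdc20, which recruits separase's inhibitor for destruction, was 2.52 ± 0.27 above prostate and -1.29 ± 0.22 from MEFs.

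S phase and G2/M members were set apart by group. Between grafts and prostate, 23 of 24 G2/M members were higher, with a median difference of 2.35, and 13 of 18 S phase members, with a median of 1.23; both medians stand beside 0.11 for all genes. In prostate the median G2/M member differed from the median S phase member of the same sample by -1.804 to -0.70 (mean -1.32 ± 0.44, SD, n = 6). In the grafts this gap was -0.20, -0.16, -0.03, 0.10 and -0.56 in FS002, FS003, FS005, FS007 and FS008, and in MEFs it was positive, from 0.26 to 0.59. The 3 groups did not overlap in this gap, which compares levels of different genes within a sample and so has a meaning only between samples.

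**Figure D4:**
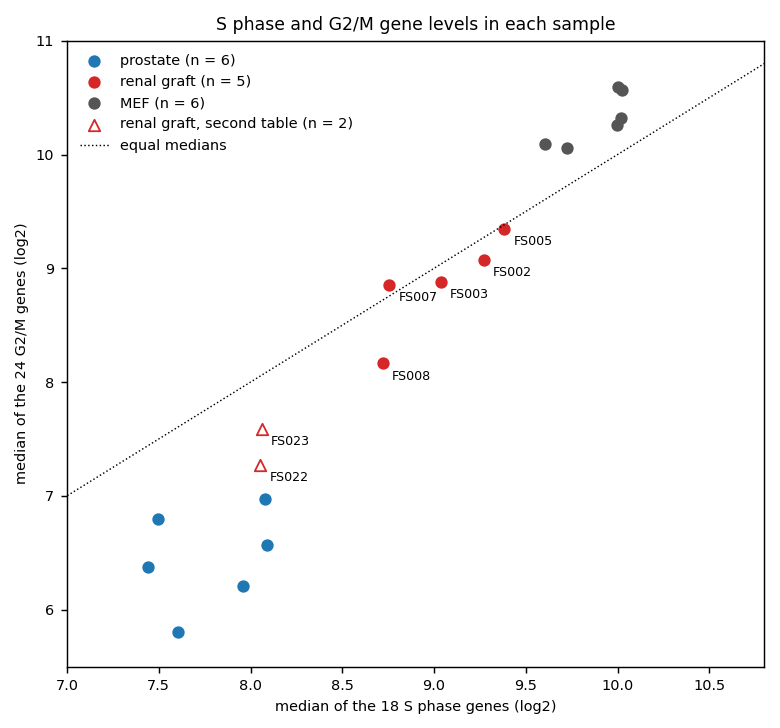
Median log2 value of the 18 S phase genes (x axis) and of the 24 G2/M genes (y axis), 1 point per sample, with the line of equal medians. The 6 MEF samples lie above the line and the 6 prostate samples under it, by a mean difference of -1.32. The grafts FS022 and FS023 (triangles, separate table) lie between prostate and the other 5 grafts on the y axis (7.27 and 7.59). On the x axis, as deposited (8.05 and 8.06), they lie inside the prostate range of 7.44 to 8.09. On the common scale used for these 2 grafts in the text, the S phase medians were 8.15 and 8.18. Both were then above the highest prostate sample, FS010 at 8.07, so the placement on the x axis depends on the scaling.

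The proximal promoters were read because the S phase and G2/M members moved by different amounts. RefSeq windows on GRCm38.p6, a later build than the mm9 of the counts, were found for 36 of 45 members, each starting 250 bases before the transcription start and 300 bases long. The CHR, an element of MuvB target genes, was searched as TTTGAA or TTCGAA, the NF-Y box as CCAAT, and the E2F site as TTTGGCGC, TTTCCCGC, TTTGCCGC or TTTCGCGC, all on both strands. A CHR occurred in 15 of 19 G2/M members and 3 of 15 S phase members, against 19.2% of all 32851 windows, and each of these 18 also held a CCAAT, a pair found in 7.52% of all windows. An E2F site occurred in 6 of 15 S phase members (Cdc6, Cdt1, Mcm3, Mcm5, Mcm6, Mcm7) and 1 of 19 G2/M members (Cdk1), against 2.26% of windows. A match is a description of the letters in the window, not evidence that a factor binds there, and E2F sites of the 2 strands can overlap.

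The stretches just before the start are shown for Mki67 as the reference, for Cdc20 and Ube2c as G2/M members with large differences, for Cdk1 as the G2/M member with an E2F site, and for Mcm5, Mcm6 and Cdc6 as S phase members. They lie at chr7:135716380-135716579 (minus strand), chr10:69352913-69353052 (minus), chr4:118437344-118437443 (minus), chr2:164769829-164769928 (plus), chr8:75109349-75109508 (plus), chr1:128359706-128359825 (minus) and chr11:98908006-98908150 (plus), in that order. Each is written 5′ to 3′ on the strand of the gene and ends at the base before the start, with matches to the 3 motifs in capitals.
Mki67: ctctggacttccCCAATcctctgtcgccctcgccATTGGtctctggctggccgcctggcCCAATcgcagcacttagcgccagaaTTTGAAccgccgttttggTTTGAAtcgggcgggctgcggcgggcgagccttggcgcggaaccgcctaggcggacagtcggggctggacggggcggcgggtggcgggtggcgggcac
Cdk1: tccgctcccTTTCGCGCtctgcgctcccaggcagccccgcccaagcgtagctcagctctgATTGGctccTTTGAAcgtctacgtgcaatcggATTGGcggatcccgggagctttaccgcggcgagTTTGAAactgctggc
Cdc20: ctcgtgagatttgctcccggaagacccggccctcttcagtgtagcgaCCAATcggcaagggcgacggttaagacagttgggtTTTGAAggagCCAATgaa
Ube2c: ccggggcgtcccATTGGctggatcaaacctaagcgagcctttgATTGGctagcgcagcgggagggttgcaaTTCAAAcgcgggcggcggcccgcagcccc
Mcm5: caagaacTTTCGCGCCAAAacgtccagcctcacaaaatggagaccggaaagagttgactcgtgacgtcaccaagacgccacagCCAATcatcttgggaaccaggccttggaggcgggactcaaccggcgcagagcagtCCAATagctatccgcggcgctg
Mcm6: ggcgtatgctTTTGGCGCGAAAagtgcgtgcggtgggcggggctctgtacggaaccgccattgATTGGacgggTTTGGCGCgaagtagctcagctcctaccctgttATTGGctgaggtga
Cdc6: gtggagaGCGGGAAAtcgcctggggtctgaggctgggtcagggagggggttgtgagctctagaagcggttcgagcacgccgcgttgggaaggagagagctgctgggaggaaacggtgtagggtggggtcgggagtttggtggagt

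In these stretches the CHR matches of Cdc20 and Ube2c began 18 and 29 bases before the start, and Cdk1 held 2, at 71 and 15 bases, beside an E2F site (-131). The E2F matches of Mcm5 and the first 2 of Mcm6 overlapped with each other on opposite strands. The 9 members without a window (Aurkb, Ccna2, Ccne2, Cdc25c, Foxm1, Gmnn, Kif20a, Mcm4, Tpx2) were not read, and 7 members with a window held none of the motifs, among them Mybl2, E2f1 and Tk1.

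**Figure D5:**
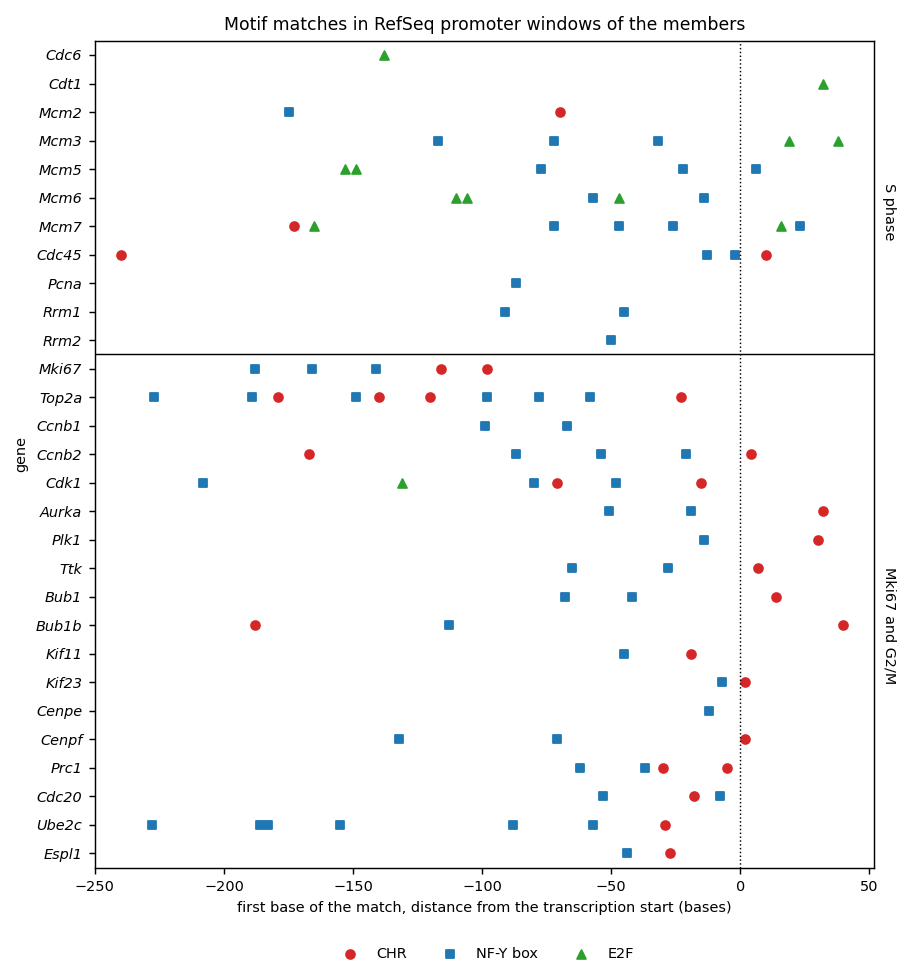
Distance from the transcription start in bases (x axis) of each match to the CHR, the NF-Y box and the E2F site in the RefSeq windows of the members with a match (rows). CHR matches are found in 15 of the 19 G2/M members with a window, and E2F matches in 6 of the 15 S phase members.

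Most mitotic members shared the highest and the lowest of the 5 iEpt+NAF grafts. FS005 was the highest graft for 23 of 24 G2/M members and FS008 the lowest for 23 of 24. Among the 18 S phase members the order differed: FS005 was highest for 8 and FS002 for 6, while FS007, and not FS008, was lowest for 11. FS002 and FS005 exceeded the lowest MEF sample for 7 members each, FS003 for 3, FS007 for 2 and FS008 for none. All 45 members were above the highest prostate sample in FS002, FS003 and FS005, 42 in FS007 and 40 in FS008. For single iEpt+NAF grafts the shares over all genes were not computed, so these counts describe the members alone. FS022 and FS023, on the common scale given below, exceeded all 6 prostate samples for 47.5% and 50.0% of 16080 genes. Those shares belong to the other kind of graft and another table, and are no background for the counts above.

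Markers of other cells also differed between the grafts, and their part in the order was not tested. Of the 4 pluripotency markers, all passed 3 reads in FS002 and FS005, with summed linear levels of 1720 and 959, 3 passed in FS003 (61.9), and none did in FS007 (6.25), FS008 (3.89) or any prostate sample (4.03 to 10.5). In MEFs only Nanog in FS015 passed (summed levels 1.85 to 7.36). The 5 kidney markers summed to 79574, 1138, 163090, 6688 and 148178 in FS002, FS003, FS005, FS007 and FS008, against 7.95 to 99.7 in prostate and 7.93 to 24.5 in MEFs. The 3 basal epithelial markers summed to 274 in FS008 and to 4749 to 19429 in the other 4 grafts, against 2501 to 4078 in prostate and 15.3 to 158 in MEFs. The 4 myeloid markers summed to 6132 to 17206 in the grafts, 934 to 4124 in prostate and 166 to 7928 in MEFs. Among MEFs, FS015 and FS020 were high and the other 4 were at 166 to 215. The 4 lymphoid markers, led by Ptprc, summed to 319 to 1005, 134 to 425 and 6.59 to 459. Ms4a1 ran the other way, at log2 values of 1.25 to 4.64 in the grafts and 3.63 to 6.12 in prostate. Cd3e and Cd79a overlapped between these 2 groups, so the lymphoid sum mainly describes Ptprc. Without FS002 and FS005, 36 of 45 members were still higher in grafts than in prostate and 34 lower than in MEFs, and without FS008 as well the counts were 36 and 32.

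The remaining lists gave these ranges of summed linear levels in grafts, prostate and MEFs. The 6 fibroblast markers summed to 12069 to 76729, 15762 to 45799 and 426204 to 609378. The 5 luminal markers summed to 24705 to 59774, 50004 to 66874 and 352 to 836. Endothelial markers, 3 genes, reached 1001 to 3077, 716 to 1017 and 142 to 521, and the 3 smooth muscle markers 3757 to 19402, 61016 to 98098 and 47871 to 84543. The endothelial sum of MEFs mainly describes Kdr. Kdr was above every prostate sample in FS015, FS016, FS019 and FS020 and below every one in FS017 and FS018. Pecam1 and Cdh5 were lower in every MEF sample than in any prostate sample. The smooth muscle sum of MEFs mainly describes Acta2, which was higher in every MEF sample than in any prostate sample. Myh11 and Des ran the other way, lower in every MEF sample than in any prostate sample. The fibroblast sum was higher in MEFs without overlap, and the luminal and basal sums were lower. Of the single fibroblast markers, Pdgfra overlapped between MEFs (10.54 to 12.13) and prostate (9.45 to 10.71).

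Setting each sample's Mki67 as the reference, the median member differed from Mki67 by -1.98 to -1.62 in the grafts, by -2.88 to -1.77 in prostate and by -2.80 to -2.34 in MEFs. The graft range did not overlap with that of MEFs, and only prostate sample FS009 lay within it. Between grafts and MEFs, 40 of 44 members lay above the Mki67 difference, and Ccne1, Kif20a, Cenpe and Tpx2 below it. Between prostate and MEFs, 26 members lay above it and 18 below. Among prostate samples FS012 had the highest Mki67 (10.03) and the highest median over the members (7.15) and over the G2/M members (6.97).

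Per kilobase of annotated exon, on the linear scale, the most abundant members in prostate were S phase genes: Mcm2 at 161, Pcna at 159, Rrm1 at 155 and Rrm2 at 150. In MEFs Rrm2 (1503), Rrm1 (1188), Cdc20 (891) and Top2a (798) led, and in the grafts Rrm1 (431), Cdc20 (370), Rrm2 (357) and Mcm6 (355). Cenpe (8.75), Ccne2 (8.79) and Ccnb1 (9.11) were the lowest in prostate. Cdc20 ranked 2 of 45 in grafts and 13 in prostate. The exon lengths are unions over transcripts of GENCODE M1, so genes with rarely used exons are understated.

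In the 2 iEpt only grafts most members were lower than in the 5 iEpt+NAF grafts. The comparison is descriptive, since the table, the sequencing depth and the kind of graft cannot be told apart. Values were set on a common scale by subtracting each sample's median difference over 10188 genes above 5 in every sample. The median member was then 7.397 in FS022 and 7.89 in FS023, against 8.30 to 9.43 in the 5 grafts and 6.41 to 7.13 in prostate. FS022 lay below all 5 grafts for 43 of 45 members, against 26.0% of 16080 genes, and FS023 for 32, against 26.2%. Every member lay below all MEF samples in both, against 31.0% of genes in FS022 and 29.0% in FS023.

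Mki67 was 9.73 in FS022 and 9.89 in FS023 on this scale, within the prostate range for both. FS022 exceeded the highest prostate sample for 20 of 45 members, against 47.5% of all genes, so that count is no result about the members, and lay below the lowest for 7 (Top2a, Cdc25c, Cdt1, Rrm2, Tk1, Mybl2, Aurka), against 32.9%. FS023 exceeded it for 30, against 50.0%, and lay below the lowest for 4 (Cdc6, Mcm2, Tyms, Tk1), against 33.1%. Mybl2 lay farthest below the mean of the 5 grafts in both, at 4.60 in FS022 and 6.06 in FS023. The 13 members of FS023 inside the iEpt+NAF range included Cdk1, Ccnb1, Kif11, Tpx2 and Aurkb, and in FS022 only E2f1 and Kif23 were inside it. The kidney markers summed to 28867 and 2687 in FS022 and FS023, and myeloid markers to 9728 and 14532. Smooth muscle markers summed to 219735 in FS022 and 1982 in FS023, against 3757 to 19402 in the 5 iEpt+NAF grafts. Luminal markers summed to 32204 in FS022 and 9498 in FS023, against 24705 to 59774. The part of such tissue differences in the member values was not tested.

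Other genes of the same pathways were read from 5 lists of related genes, whose counts stand beside the shares of all genes called: 23.0% higher in grafts than in prostate, 12.0% lower in grafts than in MEFs and 20.5% lower in prostate than in MEFs. In a list of 18 spindle and cytokinesis genes, 17 were higher in grafts than in prostate (median 2.27), 17 lower than in MEFs (median -1.57), and all 18 lower in prostate than in MEFs (median -3.85). Racgap1 and Hmmr, a centralspindlin subunit and a spindle protein, were 2.64 and 2.61 above prostate. Anln, the anillin of the cleavage furrow, was the exception there, at 0.24 ± 0.19 (adjusted p = 0.303), and had the largest difference from MEFs of the list, -2.90.

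In the list of 25 kinetochore and chromosome genes, 18 were higher in grafts than in prostate, 18 lower than in MEFs and 22 lower in prostate than in MEFs. Ncapg, of condensin, and Cenpa, the centromeric histone, differed from prostate by 2.65 and 2.64. Pttg1, securin, went the other way, with values of 8.16, 8.21, 8.11, 7.73 and 7.30 in the grafts, 8.41 to 8.89 in prostate and 7.39 to 7.81 in MEFs. It was highest in prostate with no overlap, 1.01 ± 0.11 above MEFs (adjusted p = 1.59e-06), while its partner Espl1 differed by -3.75 in the same comparison.

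Of 29 replication genes, 14 were higher in grafts than in prostate (median 0.81), 6 lower than in MEFs (median -0.64) and 21 lower in prostate than in MEFs (median -1.42). Orc1, the origin recognition subunit that varies with the cycle, led with 2.59 ± 0.29, and Rpa1, a single-strand binding subunit, was at -0.57. In the list of G1 and RB/E2F genes, 4 of 16 were higher in grafts than in prostate, a share near the 23.0% of all genes: Ccnd2, Cdk6 and the repressors E2f7 and E2f8. E2f2 was the only gene of that list higher in grafts than in MEFs, by 2.90 ± 0.37 (adjusted p = 4.9e-05), and it was also higher in prostate than in MEFs, by 2.27 ± 0.19. Against MEFs, 3 of these 16 were lower in grafts and 9 in prostate.

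Among 11 MuvB and APC/C genes, most of which encode constant subunits, Fbxo5 (Emi1, an inhibitor of the complex) and Mybl1 were higher in grafts than in prostate, by 1.45 and 1.37, a share below the 23.0% of all genes, and the median was 0.11, beside 0.11 for all genes. Lin52, a MuvB subunit, was higher in prostate than in MEFs by 1.28, while 4 of the 11 were lower there, and 4 were lower in grafts than in MEFs. These lists were assembled with earlier results of the series known and are given as counts.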

How the data were processed

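Libraries were TruSeq v2 RNA-seq, which does not mark strand. The authors normalized raw counts per gene with DESeq and deposited log2 values for 23284 genes, as 1 table of 17 samples and 1 of 2. Per the labels, the submitters' processing notes name bcl2fastq 1.8.4, TopHat, Cufflinks and the mm9 build, without roles. The transformation to log2 is not given in the sources used here. Values from 11.5 to 15 all equalled a whole number of reads (within 0.05) times a sample constant plus a shared constant, from which depths and the value of 3 reads were estimated; lower values carry a scatter, so reads were not recovered. Floors cover counting error only.

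Groups were compared on the deposited log2 values with limma 3.58.1 in R 4.3.3 (lmFit, eBayes with trend), over the 2 groups compared and genes whose mean linear level was 10 or more. Genes were called at a Benjamini-Hochberg adjusted p under 0.05 over all genes tested with a fold change of at least 1 on the log2 scale in either direction. The test was checked on simulated data. FS022 and FS023 entered no test. Positions, exon lengths and overlaps came from GENCODE M1 (mm9), and promoters from RefSeq (GRCm38.p6), matched by symbol. Calculations used Python 3.11.15, numpy 2.4.6 and pandas 2.3.3.

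Genes named with every value were Mki67 and, in each role, the members with the largest and smallest difference between grafts and prostate, besides members whose call differed from most of their role. Other names were chosen after their values were seen. The members and lists were chosen with earlier results of these data known. Alternatives changed the filter, scaling, samples, pseudocount, minimum fold and variance trend, and left out each sample. The averaging of MEF pairs and the omission of samples with high myeloid, pluripotency or kidney markers were added after the data were seen.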

Additional observations from a re-analysis of the deposited data

How the results depend on the processing

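No count of members called changed by over 1.5 times under any alternative. Members higher in grafts than in prostate numbered 33 to 45, with 39 in the main analysis: 33 under quantile normalization, 45 without the minimum fold, and 39 to 42 when 1 sample was left out. Members lower in grafts than in MEFs numbered 23 to 41, with 31 in the main analysis: 23 with MEF samples FS019 and FS020 alone, 41 without the minimum fold, 29 to 33 when 1 sample was left out, and 31 with MEF pairs averaged. All 45 stayed lower in prostate than in MEFs in each alternative. Quantile normalization moved the median of all genes between grafts and MEFs from 0.26 to -0.20 and the share of called genes that were higher in grafts from 71.3% to 42.5%; between grafts and prostate it moved these from 0.11 to -0.15 and from 69.1% to 44.0%, and between prostate and MEFs from 0.17 to -0.02 and from 57.6% to 48.0%.

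Among the members given with every value, direction turned only for 2 that had not passed, both between grafts and MEFs. The signs of other members, such as Cdt1, were not followed over the alternatives. Gmnn went to -0.45 under quantile normalization, -0.21 without FS002 and FS005, -0.22 without FS008 as well, and ranged from -0.039 to 0.23 when 1 sample was left out. Mybl2 went to -0.34 under quantile normalization, -0.36 without FS002 and FS005, and -0.043 without FS008 as well. The cause was not tested. Calls against prostate lost under quantile normalization were Ccne2, Cdc25c, Cdc45, Tyms, Aurka and Kif20a (0.15, 0.75, 0.56, 0.84, 0.92 and 0.95). Among the genes given with every value, further calls lost were Kif20a against prostate without FS002 and FS005 (0.93), Plk1 against MEFs without FS008 (-0.997), and Ccna2 against MEFs with FS019 and FS020 alone (-1.06), where Ccnb1, Cdc25c, Cdc6, Cdc45, Mcm3, Ttk and Birc5 were lost as well. No paired analysis was possible because the groups share no replicate numbers in the labels. With 5 or 6 samples a group and depths of 6629666 to 26152350 reads, every member was above the value of 3 reads in every sample.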
